A study of Homo sapiens with 16 samples.

Results

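The stretch domains were 748 long, nearly unbroken runs of monomethylated lysine 4 of histone H3 (H3K4me1) in BE2C cells, a human neuroblastoma line with amplified MYCN. They were selected on measured values, the 2 H3K4me1 lists of the control siRNA (siCtrl): bases called in both lists were kept, pieces within 2 kb were joined, and runs of 15 kb or more on autosomes were taken. Runs inside chromosome 2 from 16000000 to 17000000, the interval around MYCN, were left out, as were runs with any base inside an H3K27me3 region of either siCtrl library. Of 832 runs of that length, 84 were removed for H3K27me3 (trimethylated lysine 27). The 748 that remained were 5.90% of the 12684 domains of 2 kb or more found in the same way, and with 18.7 Mb they held 25.1% of the bases of those domains. Their length was 15 kb at the least, 20.9 kb at the median and 115 kb at the most, with 158 domains of 30 kb or more. The 11936 domains of 2 to 15 kb, called shorter domains here, served for comparison.

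CUT&Tag libraries of H3K4me1 and H3K27me3 were made from BE2C cells in 2 experiments, each with its own controls. Cells of the knockdown experiment received siKDM6B33, a single siRNA against the demethylase KDM6B, or siCtrl, and cells of the compound experiment received 2.5 µM GSK-J4 or 0.1% DMSO, all for 72 h. Each of the 8 groups of mark and treatment had 2 libraries, which makes 16 in all, and each library had a list of broad islands and a list of narrow peaks. All groups came from 1 cell line with no other allele or agent named. Replicates are named biological in the study, but the labels give only a number, so a p-value here measures the spread between these libraries, which may be technical. With 2 libraries against 2 the exact permutation test cannot give a p under 0.33, and no comparison could pass 0.05. Since the siCtrl lists of both marks chose the domains, each value of siKDM6B33 against siCtrl is a description without a test. Only GSK-J4 against DMSO was tested.

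H3K4me1 is laid down at enhancers and on the flanks of active promoters by the methyltransferases KMT2C and KMT2D, and long unbroken stretches of it are known from genes that define a cell's identity. H3K27me3 is laid down by Polycomb repressive complex PRC2, is usually found on silent developmental genes, and is removed by the demethylases KDM6A and KDM6B, which GSK-J4 inhibits. In sympathetic neuroblastoma cells, genes of noradrenergic transcription factors and of catecholamine synthesis are known to carry extended enhancers.

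Windows of 11 domains are printed to show the DNA under these domains, each the 150 bases at the tallest H3K4me1 summit of a domain that lay clear of every annotated exon, on the plus strand of hg19 (GRCh37). The first 6 come from domains at genes of the sympathetic lineage and of growth control. GATA2 is represented by chr3:128189503-128189652, between genes. HAND1 is represented by chr5:153847409-153847558, also between genes. The KLF13 window, chr15:31658206-31658355, and the CCND1 window, chr11:69459214-69459363, are intronic. The TH window is chr11:2214627-2214776 and the SLC6A2 window chr16:55686081-55686230, both outside coding genes. The last 5 come from domains named further on for their differences between groups: chr10:73740709-73740858 in CHST3, chr11:1458887-1459036 in BRSK2, chr15:75246404-75246553 beside SCAMP5, chr13:37494462-37494611 in SMAD9, and chr7:18746162-18746311 in HDAC9. Capitals mark a match, on either strand, to one of the searched motifs. These were the E-box CAGATG, the E-box CAGCTG, the E-box CACGTG, the GATA motif AGATAA, the AP-1 motif TGANTCA, the homeodomain core TAATTA and the CTCF core. A sequence without capitals held none of them.
GATA2: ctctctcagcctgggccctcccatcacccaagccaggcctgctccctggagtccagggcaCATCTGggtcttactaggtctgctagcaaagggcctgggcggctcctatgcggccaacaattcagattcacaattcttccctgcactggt
HAND1: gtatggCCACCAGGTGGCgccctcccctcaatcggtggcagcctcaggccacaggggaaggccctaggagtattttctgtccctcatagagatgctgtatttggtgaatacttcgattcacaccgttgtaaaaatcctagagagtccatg
KLF13: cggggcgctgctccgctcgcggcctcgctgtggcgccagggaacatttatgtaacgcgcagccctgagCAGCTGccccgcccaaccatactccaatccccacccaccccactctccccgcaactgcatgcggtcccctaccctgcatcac
TH: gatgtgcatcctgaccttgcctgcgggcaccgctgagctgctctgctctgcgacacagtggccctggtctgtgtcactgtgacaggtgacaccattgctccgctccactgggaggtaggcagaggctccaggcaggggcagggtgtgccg
SLC6A2: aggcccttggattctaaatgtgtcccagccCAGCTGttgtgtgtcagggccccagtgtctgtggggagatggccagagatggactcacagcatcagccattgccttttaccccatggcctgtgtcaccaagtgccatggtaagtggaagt
CCND1: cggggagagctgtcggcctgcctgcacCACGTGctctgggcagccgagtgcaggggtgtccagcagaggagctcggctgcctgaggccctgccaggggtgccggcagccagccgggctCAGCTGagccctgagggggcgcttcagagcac
CHST3: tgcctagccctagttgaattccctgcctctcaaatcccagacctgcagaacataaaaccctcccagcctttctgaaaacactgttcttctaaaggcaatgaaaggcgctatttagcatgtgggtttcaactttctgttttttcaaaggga
BRSK2: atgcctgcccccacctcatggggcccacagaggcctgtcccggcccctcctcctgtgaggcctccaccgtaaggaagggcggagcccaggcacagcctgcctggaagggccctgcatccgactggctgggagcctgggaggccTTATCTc
SCAMP5: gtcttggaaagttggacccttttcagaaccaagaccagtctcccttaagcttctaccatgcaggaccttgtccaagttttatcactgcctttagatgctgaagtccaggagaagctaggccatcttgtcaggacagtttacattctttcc
SMAD9: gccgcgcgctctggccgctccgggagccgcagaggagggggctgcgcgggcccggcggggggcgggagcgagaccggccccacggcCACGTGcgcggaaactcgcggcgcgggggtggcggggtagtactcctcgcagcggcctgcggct
HDAC9: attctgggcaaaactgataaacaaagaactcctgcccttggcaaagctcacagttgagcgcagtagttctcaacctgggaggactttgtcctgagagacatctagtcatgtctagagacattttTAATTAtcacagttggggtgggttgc

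The first 6 summits and that of BRSK2 were called in all 8 H3K4me1 libraries, and those of SMAD9 and HDAC9 in 7. Since summits were chosen first by the number of libraries that called them, these counts are partly fixed by the choice. The CHST3 summit was called in 5 libraries and was missing in both DMSO libraries and in siKDM6B33 replicate 1. The SCAMP5 summit was called in 5 libraries and was missing in both GSK-J4 libraries and in DMSO replicate 2. SMAD9 had the only printed summit within 1 kb of a transcription start, at 162 bp.

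Protein-coding genes overlapped 644 of the 748 domains. The other 104 lay between genes, at a median of 55.4 kb from the nearest start. In 412 domains no coding transcript started, and 77 held starts of 2 genes or more. Measured by bases, 66.6% of the stretch domains was intron, 9.25% exon and 24.2% outside coding genes, against 56.9%, 9.13% and 34.0% for the shorter domains and 42.6%, 3.89% and 53.5% for the autosomes as a whole. Bases within 1 kb of a start made up 6.48% of stretch and 9.59% of shorter domains, so long domains were less promoter-rich for their length. A start lay inside 44.9% of stretch and 19.8% of shorter domains. GC content was 53.7%, 50.3% and 41% in stretch domains, shorter domains and autosomes, and CpG pairs numbered 21.6, 19.8 and 9.97 per kb.

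The domains were spread unevenly over the chromosomes. Per 100 Mb of sequence there were 103 on chromosome 22, 65.6 on chromosome 17, 55.8 on chromosome 16 and 55.5 on chromosome 19, against 8.37 on chromosome 13, 6.39 on chromosome 4 and 4.02 on chromosome 18. Several genes held more than 1 domain. GSE1, which encodes a protein of a histone deacetylase corepressor complex, held 7 domains with 427.2 kb in sum. SLIT3, an axon guidance ligand, held 5 with 156.4 kb, and ZMIZ1, a transcriptional coregulator, held 4 with 201.6 kb. The RNA-binding protein gene MSI2 held 4 with 145.2 kb, and IGF1R, the insulin-like growth factor receptor, held 4 with 100.4 kb.

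The libraries differed in depth and in how well the marks were separated, which bears on every value that follows. Depth was read as the genome background of a library, the mean number of tags over a base, which was 0.0298 to 0.107 over the 16 libraries. Island lists held 7175 to 24917 islands and covered 53.7 to 114.6 Mb. In 2141 regions of 5 kb or more that carried H3K27me3 and no H3K4me1 in siCtrl, the H3K27me3 islands covered 92.5% and 91.6% of bases in siKDM6B33, 66.9% and 71.4% in DMSO, and 55.8% and 73.4% in GSK-J4. The compound experiment's H3K27me3 libraries thus kept much of the Polycomb pattern, but as shown further on their islands also lay on most stretch domains. GSK-J4 replicate 1 of H3K27me3 stood apart with 16676 islands, where the other 3 libraries of that comparison held 7175, 7398 and 8006. The H3K27me3 coverage, touched domains, calls, tag density and near-start difference of that comparison are given with and without it. Pairs of values are in the order of replicate 1 and replicate 2 throughout.

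Nearly all stretch domains were still marked by H3K4me1 in each of the 8 libraries, but none of the other groups covered them as fully as siCtrl. Islands covered 95.9% and 95.5% of stretch bases in siCtrl, the values the choice of domains fixed. The siKDM6B33 lists covered 79.4% and 79.5%, the DMSO lists 81.7% and 78.2%, and the GSK-J4 lists 79.5% and 80.2%. The drop of 16.3 percentage points from siCtrl to siKDM6B33 was thus the size of the distance between siCtrl and DMSO, the vehicle arm of the other experiment, and it came although the siKDM6B33 H3K4me1 lists were the longest of all, with 115 and 114 Mb against 103 and 98.6 Mb in siCtrl. GSK-J4 and DMSO overlapped, at 79.9% ± 0.510 and 79.9% ± 2.47 (SD, n = 2 each), with a difference of -0.0486 points (exact permutation test, two-sided, p = 1). No stretch domain was empty in siCtrl, 3 and 2 were empty in siKDM6B33, 1 and 0 in DMSO, and 1 and 1 in GSK-J4.

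**Figure D1:**
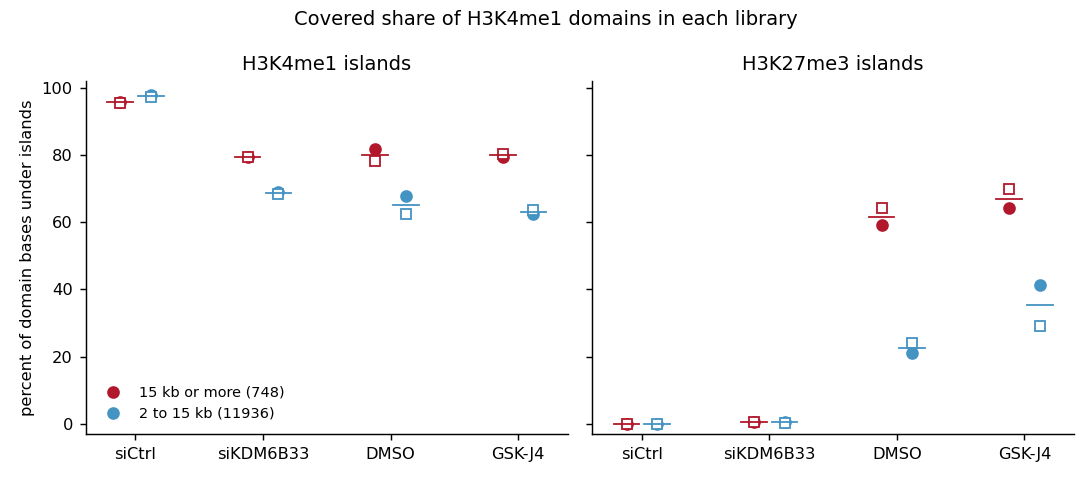
Percent of domain bases under H3K4me1 islands (left) and H3K27me3 islands (right) in each library, for the 748 stretch domains (red) and the 11936 shorter domains (blue), with replicate 1 as a filled circle, replicate 2 as an open square and a line at each group mean. For H3K4me1 the siCtrl points of stretch domains stand at 95.5 and 95.9% by choice of the domains and the other 6 libraries lie between 78.2 and 81.7%, and for H3K27me3 the DMSO and GSK-J4 points of stretch domains lie between 59.1 and 69.9% while siCtrl is at 0 by rule and siKDM6B33 is at 0.560 and 0.628%.

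Outside siCtrl, shorter domains were covered less fully than stretch domains. The choice of domains fixed siCtrl near full coverage for both classes, and DMSO and GSK-J4 belong to another experiment, so these values are not losses from siCtrl. H3K4me1 covered 68.9% and 68.4% of their bases in siKDM6B33, 67.8% and 62.3% in DMSO, and 62.6% and 63.6% in GSK-J4. Coverage of stretch domains less that of shorter domains was 10.5 and 11.1 points in siKDM6B33, 13.9 and 15.8 in DMSO, and 16.9 and 16.6 in GSK-J4, against -1.85 and -1.84 in siCtrl. Thus the longer class was the better covered in each library outside siCtrl. The gap was 1.91 points wider in GSK-J4 than in DMSO, with the 2 groups apart (exact permutation test, two-sided, p = 0.33, the smallest possible). It was 0.927 points wider without DMSO replicate 1 and 3.28 points wider with lists of equal covered length. Empty shorter domains numbered 2212 to 2823 in these 6 libraries.

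H3K4me1 coverage rose with length through every class in the 6 libraries outside siCtrl. In siKDM6B33 replicate 1, H3K4me1 islands covered 65% of the bases of domains of 2 to 5 kb, 71.2% at 5 to 10 kb, 73.6% at 10 to 15 kb, 74.9% at 15 to 20 kb, 79.7% at 20 to 30 kb, and 82.8% at 30 kb or more. DMSO replicate 1 ran from 63.0% over 76.5% at 15 to 20 kb to 86.3% in the longest class, and GSK-J4 replicate 1 from 56.9% over 74.3% to 84.5%. The 15 kb limit was therefore a point on a slope and not a step. The 27 domains of exactly 15 kb lay just inside it, and 33 domains of 14.8 kb just outside. Of the first 3 on either side, the siKDM6B33 lists covered 33.3% and 9.33% of the domain nearest ID3, 73.3% and 86.7% of that nearest OPTC, and 58.7% and 89.3% of that in GLI2 on the inside. On the outside they covered 66.2% and 71.6% of the domain nearest DMRTA2, 74.3% and 94.6% of that in C1orf21, and 100% of that in GALNT2 in both.

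Domains with at least 80% of their bases under islands were counted as kept whole. There were 745 and 741 in siCtrl, 424 and 419 in siKDM6B33, 456 and 362 in DMSO, and 408 and 422 in GSK-J4. The GSK-J4 values lay between those of the DMSO libraries (415 ± 9.90 against 409 ± 66.5, SD, n = 2 each, exact permutation test, two-sided, p = 1). Coverage was also more broken in the compound experiment. A stretch domain lay under a mean of 1.91 and 2.01 islands in siCtrl, 2.05 and 2.07 in siKDM6B33, 2.43 and 2.64 in DMSO, and 2.57 and 2.53 in GSK-J4. The longest piece had a median of 16.4 and 16 kb in siCtrl, 12.6 kb in both siKDM6B33 libraries, 11.8 and 10.8 kb in DMSO, and 10.9 and 11.2 kb in GSK-J4. When islands within 2 kb were joined and followed past the domain's ends, the run had a median of 18.4 ± 0.849 kb in DMSO and 19 kb in both GSK-J4 libraries, a difference of 0.6 kb (SD, n = 2, exact permutation test, two-sided, p = 1).

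Outside siCtrl, coverage was lower at the ends of the domains than in the middle. Averaged over all domains cut into 40 equal bins, H3K4me1 coverage in the middle 10 bins was 81.3% and 81.9% in siKDM6B33, 82.9% and 79.6% in DMSO, and 80.4% and 81.5% in GSK-J4. In the end bins it was 64.7% and 64.5%, 67.2% and 61.9%, and 65.2% and 66.5%. The domain ends are where siCtrl islands stop, and siCtrl itself went from 99.9% in the end bins of both libraries to 24.9% and 19.6% in the first kb outside. At 19 to 20 kb outside a domain, 24.7 to 34.0% of bases were again under H3K4me1 islands in the 8 H3K4me1 libraries, which shows how often another island lay near a stretch domain.

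**Figure D2:**
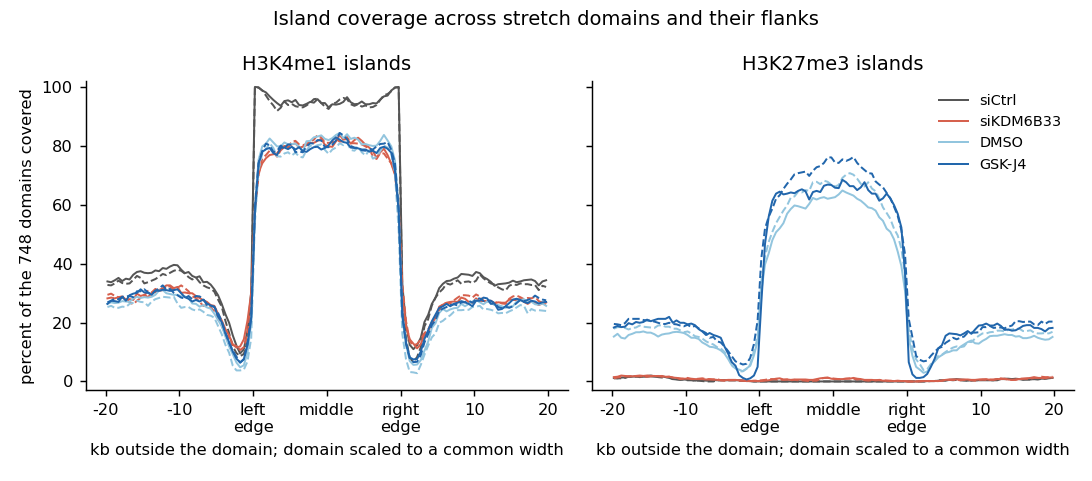
Percent of the 748 stretch domains covered by islands at each position, for H3K4me1 (left) and H3K27me3 (right), with each domain scaled to 40 bins from edge to edge and 20 kb of flank on each side, and with solid lines for replicate 1 and dashed lines for replicate 2. Outside siCtrl the H3K4me1 lines rise from 61.9 to 67.2% at the ends to 79.6 to 82.9% in the middle 10 bins, and the DMSO and GSK-J4 H3K27me3 lines also peak in the middle, at 63.0 to 74.6%.

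Islands say only whether a region was called, so the strength of the mark was read from the narrow peaks. A peak's fold enrichment and its −log10 p together give the local background around it, within 10 kb, and this value over the genome background of the library is called tag density here. It is relative to the library's own mean and is not a level per cell. Median H3K4me1 tag density over stretch domains that held a peak was 28.2 and 27.7 times the genome mean in siCtrl, 16.9 in both siKDM6B33 libraries, 21.3 and 22.7 in DMSO, and 18.7 and 18.2 in GSK-J4. Unlike coverage, density separated GSK-J4 from DMSO: 18.5 ± 0.298 stood against 22 ± 0.996 (SD, n = 2 each), a difference of -3.57 (exact permutation test, two-sided, p = 0.33). Shorter domains had densities of 5.93 and 5.84 in siCtrl, 5.06 and 5.12 in siKDM6B33, 5.18 and 5.46 in DMSO, and 5.09 and 5.07 in GSK-J4.

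The log2 ratio of the 2 classes sets the density of the long domains against that of the shorter ones. It was 2.25 in both siCtrl libraries, 1.74 and 1.72 in siKDM6B33, 2.04 and 2.06 in DMSO, and 1.87 and 1.85 in GSK-J4. Each treated library thus lay below both of its controls, by a mean of -0.19 in log2 for GSK-J4 (exact permutation test, two-sided, p = 0.33), while the fall in siKDM6B33 involves the lists that chose the domains and has no test. Density also followed length: from 4.66 at 2 to 5 kb, the siCtrl replicate 1 median rose to 16.7 at 10 to 15 kb, 24.3 at 15 to 20 kb and 36.7 at 30 kb or more. The siKDM6B33 replicate 1 medians for the same classes were 4.07, 10.9, 14.6 and 19.9.

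**Figure D3:**
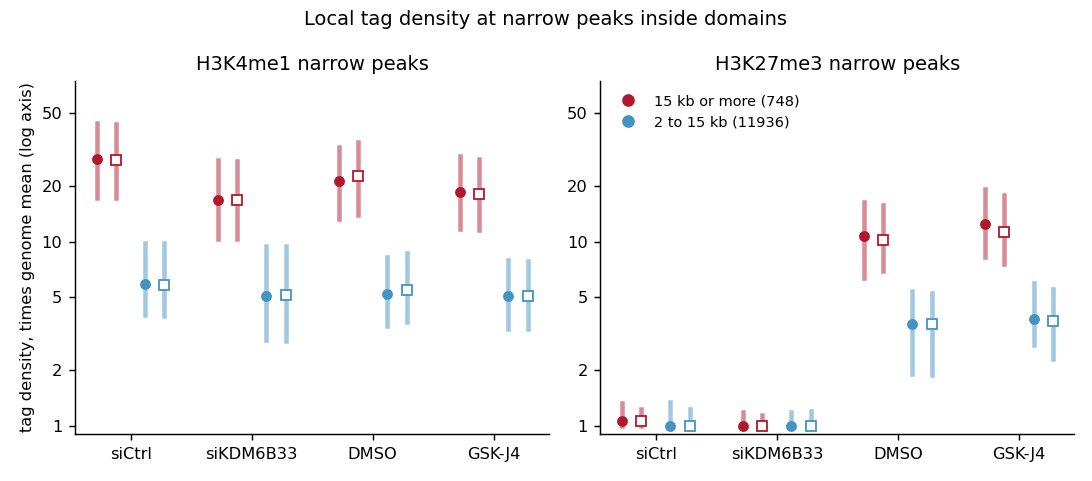
Median tag density at H3K4me1 (left) and H3K27me3 (right) narrow peaks inside domains, in multiples of the library's genome mean on a log axis, with stretch domains in red, shorter domains in blue, replicate 1 as a filled circle, replicate 2 as an open square, and a bar over the middle 50% of the domains that held a peak. For H3K4me1 in stretch domains the siKDM6B33 points, both 16.9, lie below siCtrl at 27.7 and 28.2, and the GSK-J4 points at 18.2 and 18.7 lie below DMSO at 21.3 and 22.7.

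Domain by domain, a change in coverage was called where the libraries of the groups did not overlap and the means differed by 10 points or more. Between siCtrl and siKDM6B33, 409 stretch domains (54.7%) were lower, where 49.1% of all 12684 domains were, and 6 (0.802%) were higher, where 0.552% were. Since the siCtrl lists chose the domains, these counts are a description. Between DMSO and GSK-J4, 91 stretch domains (12.2%) were lower and 92 (12.3%) higher in H3K4me1, where 14.9% and 12.2% of all domains were. With all 4 libraries, changes in both directions were thus near the background of the whole table. The higher count was 153 without DMSO replicate 1 and the lower count 152 without DMSO replicate 2, with no background share computed. For density the call needed a 1.5-fold difference and a peak in all 4 libraries, which 746 and 733 of the 748 domains had. In siKDM6B33, 446 domains (59.8%) were lower and 54 (7.24%) higher, where 46% and 18.6% of the 10798 domains tested were. In GSK-J4, 119 (16.2%) were lower and 19 (2.59%) higher, where 13.8% and 5.65% of 7076 were.

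Of the 409, 50 (12.2%) were also lower in GSK-J4 and 68 (16.6%) were higher, which is 54.9% of the 91 lower and 73.9% of the 92 higher domains. For all 748 stretch domains the shares were 12.2% lower and 12.3% higher in GSK-J4 and 54.7% lower in siKDM6B33. The overlap with lower domains was thus at the base rate, and that with higher domains was above it. These counts are a description. The domains in SMAD9 and BCAS3 were higher in siKDM6B33 and lower in GSK-J4.

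**Figure D4:**
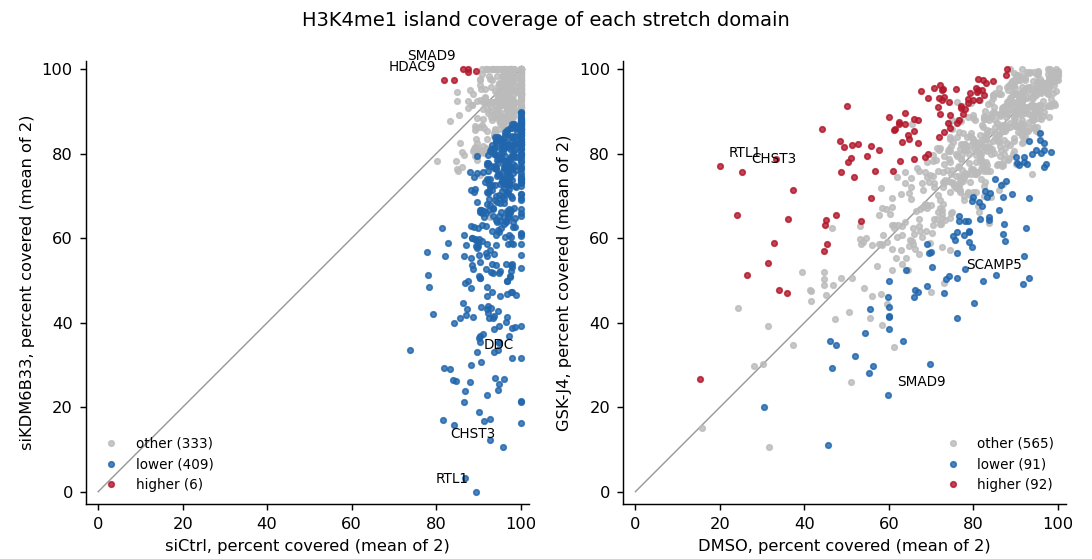
Percent of each stretch domain under H3K4me1 islands, as the mean of 2 libraries, in siKDM6B33 against siCtrl (left) and in GSK-J4 against DMSO (right), with a line where both are equal and domains called lower in blue, higher in red and neither in grey. In the left panel the points crowd at the right side, where the choice of domains on siCtrl put them, with 409 lower and 6 higher, and in the right panel they lie on both sides of the line, with 91 lower and 92 higher.

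The 6 domains with the largest falls from DMSO to GSK-J4 lay in or nearest to SCAMP5, IQCJ-SCHIP1, LRRC55, SMAD9, KIRREL3 and RPH3A. The domain in SCAMP5, a membrane protein of secretory vesicles, at chr15:75241801-75258200 was covered to 97.6% and 89.0% in DMSO and to 47.6% and 53.7% in GSK-J4. It was covered whole in both siCtrl libraries and to 75.6% and 91.5% in siKDM6B33. RPH3A, an effector of the vesicle GTPase Rab3, held a domain at chr12:113273001-113295200 with 91.0% and 69.4% in DMSO and 43.2% and 45.9% in GSK-J4. The groups did not overlap at either gene, though the DMSO replicates lay far apart at RPH3A. KIRREL3, a synaptic adhesion molecule, had 94.6% and 89.2% in DMSO against 51.6% and 60.2% in GSK-J4 at chr11:126355001-126373600. The domain in IQCJ-SCHIP1 at chr3:159560401-159585600 had 95.2% and 88.1% against 46.8% and 51.6%, and was covered whole in both siKDM6B33 libraries. A domain 22.6 kb from the nearest start, that of LRRC55, had 69.2% and 70.5% against 38.5% and 21.8%.

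SMAD9, a transcription factor of bone morphogenetic protein signalling, showed opposite directions in the 2 experiments. At chr13:37478201-37496600, which holds the SMAD9 start, H3K4me1 covered 84.8% and 88.0% in siCtrl and 100% in both siKDM6B33 libraries, but 58.7% and 60.9% in DMSO and 19.6% and 26.1% in GSK-J4. Its tag density was 7.88 and 8.87 in siCtrl, 16.2 and 21.9 in siKDM6B33, 7.13 and 7.4 in DMSO, and 3.27 and 3.61 in GSK-J4. Both measures gave the same order of groups, with no overlap in either experiment.

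The 6 largest rises in GSK-J4 were at domains that DMSO lists covered poorly. RTL1, an imprinted gene derived from a retrotransposon, held a domain at chr14:101330601-101347600 with 0% and 40% in DMSO and 70.6% and 83.5% in GSK-J4. In siKDM6B33 it was empty in both libraries, against 88.2% and 90.6% in siCtrl. CHST3, a chondroitin sulfotransferase, had 18.9% and 31.6% in DMSO and 78.9% and 72.6% in GSK-J4 at chr10:73727801-73746800, with 0% and 21.1% in siKDM6B33 against 100% and 91.6% in siCtrl. RTL1 and CHST3 were thus at once the 2 largest falls of the knockdown experiment and the 2 largest rises of the compound experiment. BRSK2, a brain kinase of neuronal polarity, had 48.4% and 40% against 83.2% and 88.4% at chr11:1456201-1475200. GNAO1, the alpha subunit of the neuronal G protein Go, held 2 of the 6, at chr16:56254601-56270200 with 35.9% and 30.8% against 89.7% and 67.9%, and at chr16:56309801-56336600 with 53.7% and 46.3% against 86.6% and 96.3%. DCAF5, a substrate receptor of a ubiquitin ligase, had 32.1% and 16% against 59.3% and 71.6% at chr14:69503401-69519600.

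Other large falls in siKDM6B33 were at SPTBN5, a beta spectrin, where coverage was whole in siCtrl and 23.7% and 8.77% in siKDM6B33, and between genes. The domain 27.8 kb from the start of ID3, an inhibitor of basic helix-loop-helix factors, went from whole coverage to 33.3% and 9.33%. The one nearest CCDC60, 31.1 kb from its start, went from 89.0% and 84.6% to 0% and 6.59%. Only 6 domains were called higher in siKDM6B33, and at each of them siCtrl coverage was between 81.7% and 91.0%. They lay in SMAD9, HDAC9 (a histone deacetylase), BCAS3, MAP3K1 (a kinase of the MAP kinase cascade), CARMIL2 (a regulator of actin capping) and ADAMTS19 (a secreted protease). HDAC9 went from 81.8% in both siCtrl libraries to 100% and 94.8%, and CARMIL2, whose domain held starts of 5 genes, from 89.4% and 85.9% to 100% and 98.8%.

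The 10 longest domains had 78.1% coverage or more in all 8 H3K4me1 libraries, and some differed in density. The longest, at chr16:85583001-85698000 in GSE1, was covered to 93.6% and 95.1% in siCtrl, 95.7% and 92.2% in siKDM6B33, 91.7% and 90.1% in DMSO, and 92.2% and 94.8% in GSK-J4. Its tag density was 32.7 and 31.8, 25.5 and 24.7, 33.8 and 36.4, and 26.7 and 31.3 in the same order, lower in each treated library than in either of its controls. The first of 2 domains of 75.2 kb in ZMIZ1 had densities of 68.2 and 69.9 in siCtrl and 23.5 and 23.3 in siKDM6B33, against 53.3 and 55.5 in DMSO and 46.9 and 46.4 in GSK-J4. The second was higher in siKDM6B33, with 49.4 and 48.5 against 43.1 and 44.4 in siCtrl, and had 35.9 and 27.8 in DMSO and 39.1 and 24.8 in GSK-J4, which overlap. Other domains among the 10 longest lay in GSE1 (103 kb), UNC5B (90.2 kb), a netrin receptor, MSI2 (81.2 kb), ZMIZ1, CCDC33 (73.4 kb), BAIAP2 (72.6 kb), an actin adaptor, and CXXC5 (69 kb), a zinc finger protein.

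Coverage near transcription starts behaved differently from the rest of the domains. Bases within 1 kb of a start, 1.21 Mb in all, were under H3K4me1 islands to 98.4% and 98.1% in siCtrl, 92.4% and 93.3% in siKDM6B33, 89.8% and 86.6% in DMSO, and 82.4% and 84.4% in GSK-J4. Away from starts the values were 95.7% and 95.3%, 78.5% in both siKDM6B33 libraries, 81.1% and 77.6%, and 79.3% and 79.9%. In siKDM6B33 the fall lay mostly away from starts, with a difference of -17 points there against -5.38 points near them, which is a description. Between DMSO and GSK-J4 the difference near starts was -4.78 points with the groups apart (exact permutation test, two-sided, p = 0.33), while away from starts the difference was 0.279 points with overlap (p = 1, same exact test).

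Narrow peaks are a second kind of list, and here the share of peaks near starts was taken. Of the H3K4me1 peaks inside stretch domains, 8.24% and 8.25% lay within 1 kb of a start in siCtrl and 14.2% and 14.3% in siKDM6B33. In DMSO the share was 8.31% and 8.56%, and in GSK-J4 it was 7.49% and 7.4%, a difference of -0.994 points (exact permutation test, two-sided, p = 0.33). The share was thus higher than control in one treatment and lower in the other. By number, 1073 and 1048 peaks lay near starts in siCtrl, 1521 and 1513 in siKDM6B33, 605 and 550 in DMSO, and 484 and 477 in GSK-J4. In siKDM6B33 more peaks thus lay near starts than in siCtrl, while coverage near starts was lower. Stretch domains held 69.5 and 67.8 H3K4me1 peaks per 100 kb in siCtrl, 57.1 and 56.5 in siKDM6B33, 38.9 and 34.3 in DMSO, and 34.5 and 34.4 in GSK-J4.

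When the peaks of the 8 H3K4me1 libraries were joined by position, they formed 20036 clusters inside stretch domains. All 8 libraries shared 2195 clusters (11.0%), and 652 of the 748 domains held at least 1 of these, with a median of 2 and at most 19. Clusters called in both siKDM6B33 libraries and in neither siCtrl library numbered 1255, and 429 of them (34.2%) lay within 1 kb of a start. The share was 5.85% for the 2206 clusters of both siCtrl libraries and neither siKDM6B33 library. It was 10.3% for 514 of both DMSO and neither GSK-J4 library, 6.69% for 359 of both GSK-J4 and neither DMSO library, and 10.7% for all clusters. Each set leaves out only the partner group, so its clusters may also be called in the other experiment. The siKDM6B33 set was the only one of these with a share of starts well above that of all clusters.

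H3K27me3 was absent from the stretch domains in siCtrl by rule, and it stayed nearly absent in siKDM6B33. Islands covered 0.628% and 0.560% of bases there and touched 27 and 23 domains, although the siKDM6B33 H3K27me3 lists covered 89.8 and 87.3 Mb of the genome against 53.7 and 54.2 Mb in siCtrl. A rise of 10 points or more was called for 13 domains (1.74%), where 0.505% of all 12684 domains had one. With lists of equal covered length, mean coverage was 0.207% instead of 0.594%, the mean number of touched domains 6 instead of 25, and the number of called domains 5 instead of 13. H3K27me3 islands covered most in the domain of C14orf132, with 51.0% and 56.1% of bases, and in that of KDM4B, a demethylase of lysine 9, with 49.5% and 43.9%. PCDH1, a protocadherin, had 35.0% and 28.8%, WDR25 37.8% and 28.0%, CTNNBL1 28.2% and 25%, CACNG4 19.9% and 25.5%, and ASIC4 14.2% and 9.71%. Near starts 2.78% and 1.70% of bases were covered.

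In the compound experiment most stretch domains lay under H3K27me3 islands already in DMSO. Islands covered 59.1% and 64.1% of bases in DMSO and 64.2% and 69.9% in GSK-J4, and touched 673 and 687 against 743 and 708 domains. GSK-J4 was higher by 5.44 points (67% ± 4.05 against 61.6% ± 3.50, SD, n = 2 each) and by 45.5 domains, with the groups apart in both, although DMSO replicate 2 and GSK-J4 replicate 1 had nearly the same coverage (exact permutation test, two-sided, p = 0.33). The coverage of the groups overlapped for domains of 20 kb or more and with islands of 2 kb or more, and the touched domains overlapped with lists of equal covered length (p = 0.67 each, same exact test). Without GSK-J4 replicate 1, the library that stood apart, the differences were 8.30 points and 28.0 domains. The coverage difference was 2.58 points without GSK-J4 replicate 2, 2.96 points without DMSO replicate 1 and 2.95 points with lists of equal covered length. Shorter domains had 21.2% and 23.9% in DMSO and 41.4% and 29.2% in GSK-J4, a difference of 12.7 points (exact permutation test, two-sided, p = 0.33) that was 6.66 points without that library. H3K27me3 islands in GSK-J4 replicate 1 were also more broken, with 2.71 pieces per stretch domain against 1.56, 1.57 and 1.6 in the other 3 libraries.

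A rise in H3K27me3 coverage from DMSO to GSK-J4 was called for 138 stretch domains (18.4%), where 7.03% of all 12684 domains had one, and a fall for 40 (5.35%), where 1.87% had one. Without GSK-J4 replicate 1 the counts were 253 and 59. The rises were 279 without DMSO replicate 2, and the falls were 129 without DMSO replicate 1, 80 without DMSO replicate 2 and 118 without GSK-J4 replicate 2. Both counts from all 4 libraries were above the background of the whole table, and H3K27me3 coverage in DMSO was also higher in the stretch class than in the shorter class. Of the 138, 18 (13.0%) were among the 91 domains with lower H3K4me1, and 21 (15.2%) among the 92 with higher H3K4me1. Both shares were near those of all stretch domains, 12.2% and 12.3%. In RGS16, KIRREL3, MVK, NANOS3 and RPS19BP1 both marks were lower, and in IFT140 and MED15 H3K4me1 was higher and H3K27me3 lower.

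The H3K27me3 of DMSO and GSK-J4 lay where H3K4me1 lay. Of the H3K27me3 narrow peaks in stretch domains, 88.3% and 85.3% in DMSO and 82.3% and 85.0% in GSK-J4 had an H3K4me1 summit of the same replicate number within 200 bp, out of 1659, 1944, 4124 and 2639 peaks. In siCtrl the share was 62.3% and 61.6% of 244 and 268 peaks, and in siKDM6B33 56.8% and 58.6% of 359 and 307. Over the 533 domains with peaks of both marks in both DMSO libraries, the densities of the marks had a Spearman correlation of 0.916, and over all 748 the covered percents had one of 0.773, both across domains whose values come from the same 4 libraries and whose base composition is shared by the marks. Median H3K27me3 density was 10.8 and 10.3 in DMSO and 12.4 and 11.4 in GSK-J4, a difference of 1.36 (exact permutation test, two-sided, p = 0.33), against 1.06 in both siCtrl libraries and 1.00 in both siKDM6B33 libraries. Without GSK-J4 replicate 1 the density difference was 0.828. The density medians cover only domains with an H3K27me3 peak. Of the 748, 157 and 104 had none in DMSO, 28 and 66 in GSK-J4, 554 and 537 in siCtrl, and 495 and 520 in siKDM6B33. The groups were thus compared on unlike sets of domains. The profile along the domains was alike as well, with 63.0% and 68.0% in the middle 10 bins and 35.0% and 39.5% in the end bins in DMSO. Whether the DMSO and GSK-J4 islands here are H3K27me3 of these domains or the H3K4me1 pattern appearing in the H3K27me3 libraries was not tested.

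Length and H3K27me3 went together in DMSO. In replicate 1, islands covered 7.45% of the bases of domains of 2 to 5 kb, 27.3% at 5 to 10 kb, 41.7% at 10 to 15 kb, 48.2% at 15 to 20 kb, 57.2% at 20 to 30 kb and 69.7% at 30 kb or more. The longest domain, in GSE1, was covered to 89.2% and 83.3% in DMSO and to 81% and 87.8% in GSK-J4, and to 0% in siKDM6B33. Near transcription starts, H3K27me3 covered 63.3% and 67.4% in DMSO and 71% and 75.4% in GSK-J4, a difference of 7.80 points (exact permutation test, two-sided, p = 0.33), where H3K4me1 was lower. The difference near starts was 10 points without GSK-J4 replicate 1.

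The 7 gene lists were set against the domains, with a gene counted as held when its body with 5 kb on each side shared a base with a domain. Of 19229 autosomal coding genes, 820 (4.26%) were held. Catecholamine synthesis and storage genes had 7 of 13 (53.8%), among them DDC, DBH, TH, CHGA, SLC6A2 and CYB561. Adrenergic transcription factors had 7 of 20 (35%), namely KLF7, GATA2, HAND1, GATA3, LMO1, KLF13 and TBX2. Receptor tyrosine kinases and neurotrophin receptors had 3 of 20 (15%), among them RET and IGF1R, and genes of the CDK4/6-RB-E2F pathway 2 of 22 (9.09%), CCND1 and E2F1. The KDM6, PRC2 and KMT2 genes had 1 of 16 (6.25%), JARID2, mesenchymal transcription factors 1 of 19 (5.26%), TWIST1, and ribosomal protein genes 0 of 20. These counts describe the siCtrl lists that chose the domains. KDM6B itself, at chr17:7737535-7758114, lay under 2 shorter domains of 13.2 and 8 kb.

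**Figure D5:**
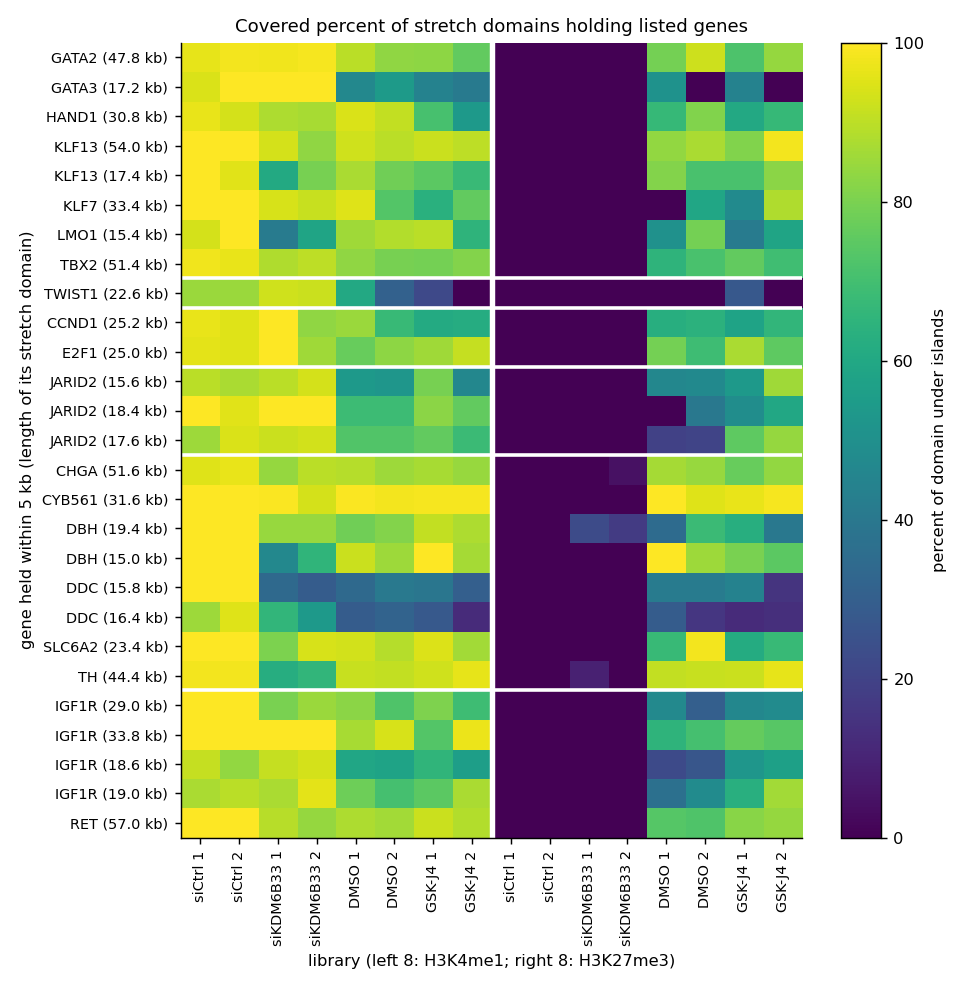
Percent of each stretch domain within 5 kb of a listed gene that is reported here (1 line per domain, with its length) under islands of each library (columns, H3K4me1 left and H3K27me3 right), from dark at 0 to yellow at 100%. For H3K4me1 the CYB561 line stays above 90% in all 8 libraries, while TWIST1, GATA3 and DDC are at 60.2% or less in DMSO and GSK-J4, and for H3K27me3 the siCtrl columns are 0 by rule.

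Domains of adrenergic transcription factors differed among themselves. GATA2, a zinc finger factor of the sympathetic lineage, held a domain of 47.8 kb at chr3:128170201-128218000 that was covered to 96.2% and 98.3% in siCtrl and 97.9% and 98.7% in siKDM6B33, and to 89.5% and 83.3% in DMSO and 82.8% and 76.2% in GSK-J4. HAND1, a basic helix-loop-helix factor, had 96.8% and 93.5%, 87.7% and 87.0%, 94.2% and 90.9%, and 70.8% and 53.9% at chr5:153838801-153869600. Both GATA2 and HAND1 were lower in each GSK-J4 library than in either DMSO library, and HAND1 met the 10-point call. Their densities went apart in the knockdown. At HAND1 it was 23.3 and 25.5 in siCtrl and 47.3 and 48.3 in siKDM6B33, while at GATA2 it was 48.3 and 60.5 against 57.0 and 55.5. In the compound experiment HAND1 had 20.3 and 19.7 in DMSO against 12.7 and 12.8 in GSK-J4, and GATA2 36.1 and 42.5 against 20.2 and 28.3.

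The values of the other factors on this list varied from gene to gene. GATA3, a factor of noradrenergic differentiation, was covered to 94.2% and 100% in siCtrl and whole in siKDM6B33, but to only 46.5% and 54.7% in DMSO and 44.2% and 40.7% in GSK-J4. H3K27me3 islands covered 51.2% and 0% of the GATA3 domain in DMSO and 44.2% and 0% in GSK-J4, so the replicates of both groups differed there. LMO1, a LIM-domain cofactor and neuroblastoma susceptibility gene, fell from 93.5% and 100% to 41.6% and 58.4% in siKDM6B33, with 85.7% and 88.3% in DMSO and 89.6% and 64.9% in GSK-J4. KLF7 had 95.2% and 73.1% in DMSO and 63.5% and 76.0% in GSK-J4, which overlap. KLF13, with 54 kb in its longer domain, had 83.3% or more there in all 8 H3K4me1 libraries and was called lower in siKDM6B33, with 93.7% and 83.3% against 100% in both siCtrl libraries. Its second domain, of 17.4 kb at chr15:31679401-31696800, was called lower in both experiments, with 100% and 95.4% in siCtrl, 60.9% and 79.3% in siKDM6B33, 87.4% and 78.2% in DMSO, and 74.7% and 67.8% in GSK-J4. TBX2 lay in a domain of 51.4 kb shared with BCAS3, with 79% to 97.7% over the 8 libraries.

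Catecholamine genes showed how coverage and density can part. CHGA, the chromogranin of secretory granules, lay in a domain of 51.6 kb at chr14:93380001-93431600 that shares more bases with ITPK1 than with CHGA. This domain was covered to 95% and 96.5% in siCtrl, 84.1% and 89.5% in siKDM6B33, 88.8% and 85.3% in DMSO, and 86.8% and 84.5% in GSK-J4. Its density was 44.4 and 44.5, 10.8 and 10.1, 36.2 and 35.3, and 23.1 and 24.3 in that order. In siKDM6B33 the coverage of CHGA was thus below siCtrl by less than the 10 points of a call, while its density was far below siCtrl. TH, the rate-limiting enzyme of catecholamine synthesis, held 44.4 kb at chr11:2177201-2221600 with 98.2% in both siCtrl libraries, 62.2% and 65.8% in siKDM6B33, 91.4% and 91.0% in DMSO, and 92.8% and 96.4% in GSK-J4. DBH, which converts dopamine to noradrenaline, had densities of 80.2 and 80.8 in siCtrl, 35.9 and 36.0 in siKDM6B33, 46.7 and 50.5 in DMSO, and 34.8 and 35.7 in GSK-J4 at chr9:136491201-136510600. The density of this DBH domain was thus lower than control in both treatments. The second DBH domain, at chr9:136518401-136533400, had 21.1 and 18.7 in siCtrl and 6.64 and 5.91 in siKDM6B33, but 17.8 and 14.5 in DMSO and 22.1 and 22 in GSK-J4, so in the compound experiment its treated libraries were the higher ones, with the groups apart.

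SLC6A2, the noradrenaline transporter, had a higher density in the knockdown and a lower coverage, which went from 100% in both siCtrl libraries to 80.3% and 94.0% and was called lower. Its densities were 24.8 and 30.8 in siCtrl and 48.6 and 43.1 in siKDM6B33, and 14.5 and 22.8 in DMSO and 14.1 and 14.7 in GSK-J4. DDC, the aromatic amino acid decarboxylase, had 2 domains, and the first was covered whole in siCtrl and to 34.2% and 29.1%, 34.2% and 40.5%, and 39.2% and 30.4% in the other groups. CYB561, the cytochrome of chromaffin granules, stayed above 90% in all 8 H3K4me1 libraries. H3K27me3 covered 22.7% and 17.5% of the DBH domain in siKDM6B33, and 9.01% and 0% of that of TH.

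Among growth genes, CCND1, the cyclin that activates CDK4 and CDK6, was covered to 96.8% and 95.2% in siCtrl, 100% and 83.3% in siKDM6B33, 84.9% and 67.5% in DMSO, and 61.1% and 61.9% in GSK-J4 at chr11:69448801-69474000. Its density was 33.8 and 31.8 in siCtrl, 60.7 and 59.3 in siKDM6B33, 24.1 and 29.5 in DMSO, and 26.8 and 26.0 in GSK-J4. GSK-J4 coverage lay below both DMSO libraries while the densities overlapped. E2F1, a cell cycle factor bound by RB, lay in a domain that shares more bases with NECAB3. This domain had 76.8% and 83.2% in DMSO against 85.6% and 91.2% in GSK-J4. RET, the receptor of glial cell line-derived factors, had 84.2% or more of its 57 kb at chr10:43550201-43607200 covered in all 8 H3K4me1 libraries and was called lower in siKDM6B33, with 89.1% and 84.2% against 100% in both siCtrl libraries. Its H3K27me3 was 73.7% and 72.3% in DMSO and 82.1% and 84.2% in GSK-J4. TWIST1, the 1 mesenchymal factor held, had 85.0% in both siCtrl libraries, 92.9% and 92% in siKDM6B33, 60.2% and 31.0% in DMSO, and 22.1% and 0% in GSK-J4. TWIST1 density was 6.21 and 5.92 in siCtrl and 25.8 and 24.3 in siKDM6B33, against 5.54 and 6.58 in DMSO and 3.30 and 3.74 in GSK-J4. At TWIST1, as at SMAD9, siKDM6B33 thus lay above siCtrl and GSK-J4 below DMSO in both measures. In JARID2, a partner of PRC2, H3K27me3 covered 19.3% and 20.5% of the third domain in DMSO and 75% and 84.1% in GSK-J4.

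Apart from the printed windows, the motifs were searched in 200-bp windows of 747 stretch and 11608 shorter domains. Each window lay at the domain's tallest H3K4me1 summit in siCtrl replicate 1, exons included. The shares thus rest on a single library, which also helped to choose the domains. The E-box CAGCTG was in 24.5% of stretch windows, in 14.6% of windows moved by 2 kb, in 19.2% of shorter domains' windows and in 19.5% of all. CAGATG was in 19%, 15.8%, 20.1% and 20.1%, and CACGTG in 4.42%, 4.69%, 4.73% and 4.71%. The AP-1 motif TGANTCA was in 9.37%, 5.35%, 8.16% and 8.23%, the GATA motif AGATAA in 8.57%, 7.63%, 11.4% and 11.2%, and TAATTA in 3.35%, 3.88%, 4.80% and 4.71%. The CTCF core was in 1.74%, 0.268%, 1.13% and 1.17%. The shares at stretch summits were above those 2 kb away for CAGCTG, the AP-1 motif, CAGATG, the GATA motif and the CTCF core and below them for CACGTG and the homeodomain core, and none of these differences was tested. GC content was 58.5% in stretch and 54.3% in shorter windows, and its part in these shares was not tested. The search took both strands, and some forms of the CTCF core contain the E-box CAGATG, so a window may count for both.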

How the data were processed

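The authors deposited an island list (SICER, FDR 1e-05, 200-bp windows, 600-bp gaps, effective genome fraction 0.86) and a narrow peak list (MACS2, q 0.05) for each of 16 CUT&Tag libraries, called without pooling replicates. Per the submitters' processing notes and the study's methods, reads were trimmed with Trim Galore 0.4.4 and aligned to hg19 with BWA 0.7.12, duplicates were removed with Picard 1.65, and fragments of 150 to 2000 bp were kept. The score in the deposited island lists was not used beyond ordering islands for lists of equal covered length. The fold (a ratio) and the −log10 p and −log10 q in the deposited peak lists refer to each library's own background. The authors' E. coli scaling was not used, so values are relative to each library, and a change of all domains alike cannot be seen. Libraries differed in depth, and list length and peak number were not corrected for it except in the lists of equal covered length.

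Coverage was the percent of domain bases under islands. Fold and −log10 p were solved for the whole-number summit pileup and the local background, and at least 99.99% of peaks per library were solved. The lowest background among the 20 commonest pairs was taken as the genome background. Domains without a peak have no density. Group means over libraries were set against each other in an exact permutation test, two-sided. Genes and starts came from GENCODE 44 on GRCh37, and coordinates are 1-based. A domain carries the name of the coding gene that covers most of it, or else of the nearest start, with symbols that begin with ENSG passed over. Domains reported for a listed gene go by that gene, which lies within 5 kb and need not cover most of the domain. Named were the 10 longest domains, those of the gene lists, the 6 largest falls and 6 largest rises in each experiment, the 8 with most H3K27me3 in each treatment, and 3 on each side of the 15 kb limit. Some of these are not reported here. The members and lists were chosen with earlier results of these data known. Scripts were tested on simulated data. Python 3.11.15, NumPy 2.4.6, pandas 2.3.3, SciPy 1.17.1 and matplotlib 3.10.9 were used. Group labels and replicate numbers came from sample titles.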

Additional observations from a re-analysis of the deposited data

How the results depend on the processing

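Of 103 alternative values of the differences and of the number of domains, 84 kept the sign of a tested difference, or for values with no test stayed within the spread between libraries or within 1.5 times the count, 8 changed sign and 11 moved further. The H3K4me1 coverage difference of GSK-J4 minus DMSO, -0.0486 points, was 0.138 for domains of 20 kb or more and -1.79 to 1.70 with a library left out. The difference in domains kept whole, 6, was -0.5 with lists of equal covered length, -7.5 at 50% coverage, and -41 to 53 with a library left out. Peaks per 100 kb, which differed by -2.43 and -2.80 with the groups apart at a −log10 q of 2 and of 5 or more, differed by -4.39 to 0.168, run length by 0 to 1.2 kb, H3K27me3 coverage by 2.58 to 8.30 points, touched domains by 28 to 63 and the stretch-minus-shorter gap by 0.927 to 2.89 points with a library left out. Touched domains differed by 11 at 20 kb or more and by 104 with pieces joined within 4 kb, the gap by 3.28 points and H3K27me3 coverage by 2.95 points with lists of equal covered length. H3K4me1 density kept its sign in every alternative (-4.28 to -2.41, and -3.53 in the 733 domains with a peak in all 4 libraries, an alternative chosen after seeing the data). The siKDM6B33 fall of 16.3 points became -17.6 with pieces joined within 4 kb, -14.8 at 20 kb or more and -19.3 with lists of equal length. The H3K27me3 rise of 0.594 points became 0.409, 0.536 and 0.207, and the 25 touched domains became 16.5 at 20 kb or more and 6 with equal lists. There were 404 domains without joining, 1165 at 12 kb or more and 419 at 20 kb or more. Calls moved most with H3K27me3 libraries: the 138 domains higher in GSK-J4 were 279 without DMSO replicate 2 and 253 without GSK-J4 replicate 1, and the 40 lower ones 129 without DMSO replicate 1, 80 without DMSO replicate 2 and 118 without GSK-J4 replicate 2. For H3K4me1, the 92 higher were 153 without DMSO replicate 1, and the 91 lower 152 without DMSO replicate 2. The 6 higher in siKDM6B33 were 11 without siCtrl replicate 1, and the 13 with higher H3K27me3 were 5 with equal lists. With a library left out, the H3K27me3 differences were 0.828 to 1.90 for density, 5.60 to 10 points near starts and 6.66 to 18.8 points in shorter domains. These alternatives, those of the calls and those near starts were chosen after seeing the data. The cause was not tested. The replicate numbers did not pair the libraries (correlation of deviations 0.0439 for H3K4me1 and 0.00309 for H3K27me3). With the replicate number as a block the differences were the same, -0.0486 points for H3K4me1 coverage and -3.57 for density, and the smallest p of the exact sign-flip test was 0.5. Depth differed between libraries, and shallow libraries may miss thin parts of a domain.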
